A study of Mus musculus with 2 samples.

Results

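The globin genes examined here are the 5 protein-coding genes of the beta-globin locus (Hbb-bt, Hbb-bs, Hbb-bh2, Hbb-bh1 and Hbb-y, chromosome 7) and 3 genes of the alpha-globin locus (Hba-x, Hba-a1 and Hba-a2, chromosome 11). They were chosen by name and not by a rule on measured values, though with earlier results of these data known. They are 8 of the 21755 protein-coding genes annotated on chromosomes 1 to 19 and X. The position of each gene is its transcription start site (TSS) in GENCODE M21, on the mouse build GRCm38. The measurement is a list of 7576 boundaries, each a bin of 5 kb at which chromatin contacts between the 2 sides are depleted in an in situ Hi-C map. In situ Hi-C joins DNA ends that lie close together in intact nuclei and counts the joined pairs by sequencing.

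The map came from 1 group of cells, so the study holds no control condition. Primary olfactory sensory neurons that had switched on the odorant receptor gene Olfr17 (also called P2) were isolated by fluorescence sorting from the olfactory epithelium of adult P2-GFP mice of mixed sex and strain 129P2/OlaHsd, with no treatment. The 2 biological replicates held 23000 and 20000 cells, were crosslinked with 1% formaldehyde and were cut with DpnII. The authors' deposited list is a single one for both replicates, so no value below has a replicate error and no p-value is given. The number of mice behind each replicate was not stated in what was read here. No RNA was measured, so neither the identity of the sorted cells nor the silence of the globin genes in them could be checked against marker genes. Neither the depth of the map nor the boundary caller was stated in what was read here, and differences under the bin size of 5 kb are not resolved.

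Haemoglobin is built from alpha-like and beta-like globin chains, and its genes are the classic example of genes switched on by distant enhancers in erythroid cells. The embryonic and the adult beta-globin genes lie towards opposite ends of their locus. Their enhancers form the locus control region (LCR) upstream of the embryonic end. The alpha-globin enhancers lie in and around the introns of the housekeeping gene Nprl3. Olfactory neurons are not erythroid cells, and in the mouse the beta-globin locus is embedded in a large cluster of class I odorant receptor genes, whereas the alpha-globin locus lies among broadly expressed genes. CTCF is a DNA-binding protein that, with cohesin, stops chromatin loops at many boundaries.

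In these neurons the 5 beta-globin genes did not lie in a single interval between boundaries: a boundary of the class Strong stood within the locus, at chr7:103825001-103830000 (GRCm38), over the adult gene Hbb-bs. Hbb-bt lay on one side of it and Hbb-bh2, Hbb-bh1 and Hbb-y on the other. The 3 alpha-globin genes shared one interval with no boundary between them. The TSSs of the beta-globin genes were 0.596 to 25.7 kb from the nearest boundary midpoint, with a median of 13.5 kb, and those of the alpha-globin genes 104 to 124 kb, with a median of 111 kb. The ranges of the 2 loci did not overlap. The median over all protein-coding genes was 59.2 kb, with quartiles of 26.5 and 107 kb, so the beta-globin median fell below the lower quartile and the alpha-globin median above the upper one. Neighbouring genes share their boundaries, so the genes of one locus are not independent observations, and the comparison is of 1 locus with 1 locus.

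**Figure D1:**
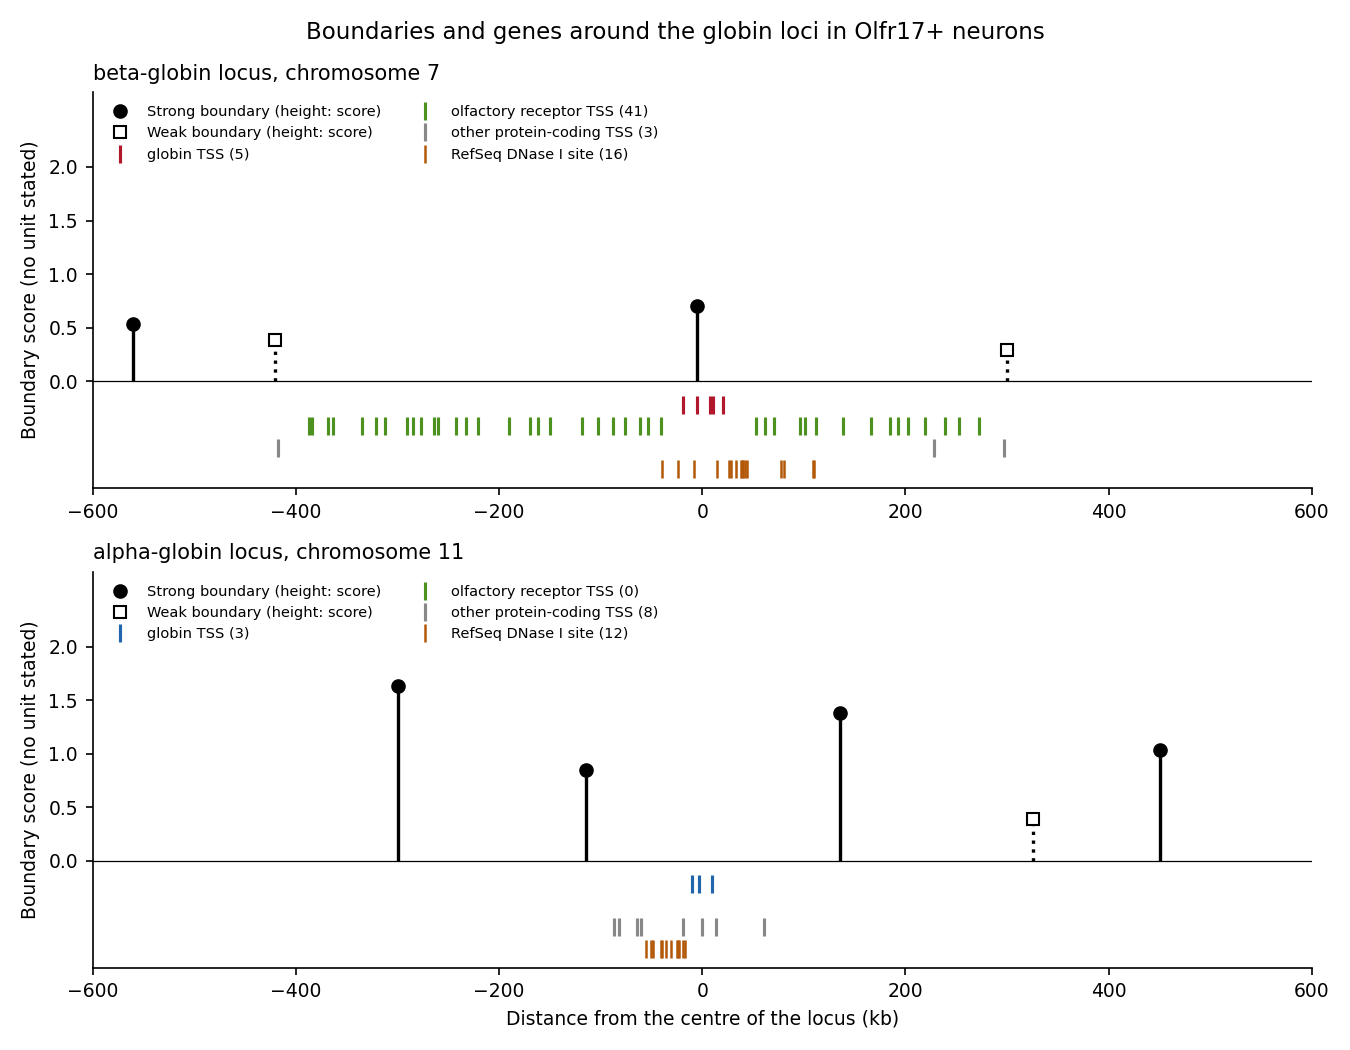
Boundaries and genes around the beta-globin locus (top) and the alpha-globin locus (bottom) against the distance from the centre of the locus in kb. Stems give the deposited score of each boundary (filled circles Strong, open squares Weak), and the ticks below 0 mark the TSSs of globin, odorant receptor and other protein-coding genes in the intervals of the locus and the DNase I sites that RefSeq annotates. The beta-globin ticks lie on both sides of a Strong boundary scored 0.700, and the alpha-globin ticks lie together between Strong boundaries scored 0.844 and 1.38.

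Hbb-bs and Hbb-bt encode the adult beta chains in mice of the single Hbb haplotype, which the reference genome carries. Whether the mice of this study carry it was not analysed, so genes and positions are those of the reference. The whole of Hbb-bs, transcribed from the minus strand at chr7:103826534-103828096, lay inside the bin of the boundary, and its TSS was 0.596 kb from the bin's midpoint. Of all protein-coding genes, 1.01% had a TSS as close or closer to a boundary midpoint. A TSS inside the bin of a boundary was found for 4.00% of all protein-coding genes (870 of 21755), and for 1 of the 5 beta-globin genes and 0 of the 3 alpha-globin genes. Because Hbb-bs fills part of the bin, the side of the boundary on which it lies is not resolved: by the midpoint it falls on the right, with the embryonic genes. Hbb-bt, at chr7:103812524-103813996 on the minus strand, had its TSS 13.5 kb to the left of the same boundary and 401 kb from the next boundary on its other side. The TSSs of these 2 adult genes are 14.1 kb apart. Both genes point away from the LCR, and for Hbb-bt the boundary lay upstream of the promoter.

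The promoters of the adult genes are shown because the boundary covers one of them and not the other. The sequences are those of RefSeq (GRCm38.p6) from 250 bases before to 50 bases after the RefSeq start, read 5′ to 3′ on the strand of the gene. Capitals mark matches, on either strand, to CCACACCC (the box bound by erythroid Krüppel-like factors), CCAAT (found in many promoters), GATAA (bound by GATA factors) and ATAAA (part of many boxes of the TATA type). GATAA and ATAAA overlap where a promoter reads GATAAA. The Hbb-bs promoter lies at chr7:103827879-103828178, within the bin of the boundary, and the Hbb-bt promoter at chr7:103813874-103814173, both on the minus strand.
Hbb-bs: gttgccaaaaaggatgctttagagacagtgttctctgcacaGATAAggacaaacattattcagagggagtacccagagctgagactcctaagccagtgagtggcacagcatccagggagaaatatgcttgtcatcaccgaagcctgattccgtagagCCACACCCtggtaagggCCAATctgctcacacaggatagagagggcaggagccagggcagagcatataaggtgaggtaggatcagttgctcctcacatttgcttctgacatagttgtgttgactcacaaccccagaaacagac
Hbb-bt: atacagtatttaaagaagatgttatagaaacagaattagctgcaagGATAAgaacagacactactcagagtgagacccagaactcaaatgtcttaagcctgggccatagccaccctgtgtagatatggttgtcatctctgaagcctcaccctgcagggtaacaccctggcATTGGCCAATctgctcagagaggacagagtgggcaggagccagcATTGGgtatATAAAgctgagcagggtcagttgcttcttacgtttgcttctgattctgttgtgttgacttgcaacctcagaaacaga
The 2 promoters were identical at 72.7% of aligned positions. A RefSeq promoter was found for 7 of the 8 globin genes, all but Hbb-bh1. GATAA was present in 7 of these 7 and in 25.4% of all 32851 mouse promoters in the table, and CCAAT in 5 of 7 and in 37.4% of all. ATAAA was present in 4 of 7 and in 40.0% of all. CCACACCC was present in Hbb-bs alone of the 7, at 93 bases before the start, and in 3.56% of all. This exact match does not find every box of the kind. In the Hbb-y promoter, which lacks CCACACCC, RefSeq annotates a CACCC sequence bound by Krüppel-like factors 1 and 3, at chr7:103853305-103853327. These matches describe letters in a window and not bound factors, and none of the motifs was read from the Hi-C data.

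The other beta-globin genes lay to the right of the boundary. Hbb-bh2 (chr7:103839124-103840520) had its TSS 13.0 kb from the midpoint, so that it and Hbb-bt stood at nearly the same distance on opposite sides. Hbb-bh1 (chr7:103841637-103843164), an embryonic beta-like chain gene, was 15.7 kb away. Hbb-y (chr7:103851749-103853216), the embryonic epsilon-like gene next to the LCR, was 25.7 kb away. The distance of these genes from the boundary follows their order on the chromosome and carries no information beyond it. For each of them the next boundary on the other side was far, between 279 and 292 kb. The pseudogenes Hbb-bh3 and Hbb-bh0, which lie between the coding genes, were 6.22 and 22.6 kb from the boundary on the same side.

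**Figure D2:**
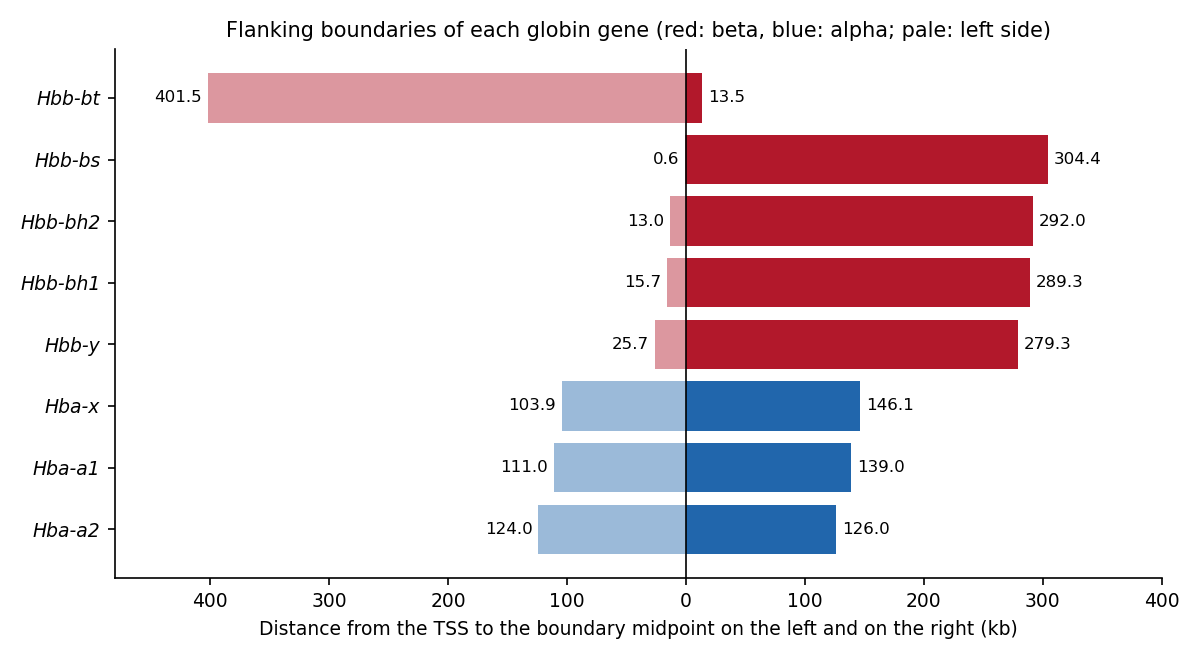
Distance in kb from the TSS of each globin gene to the boundary midpoint on its left (pale bars) and on its right (full bars), with beta-globin genes in red above and alpha-globin genes in blue below. Hbb-bt has its near boundary on the right at 13.5 kb and the other beta-globin genes have theirs on the left, whereas the alpha-globin genes sit near the middle of their interval.

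A TSS within 25 kb of a boundary midpoint was found for 4 of the 5 beta-globin genes (Hbb-bs, Hbb-bh2, Hbb-bt and Hbb-bh1) and for 0 of the 3 alpha-globin genes, against 23.9% of all protein-coding genes (5200 of 21755). Hbb-y missed that limit by under 1 kb. The 4 genes were near one and the same boundary, so the count reflects a single boundary and the compactness of the locus. To set the beta-globin locus against clusters of its own size, all runs of 5 neighbouring protein-coding TSSs that span 30 to 50 kb were examined: 195 of 976 such runs, 20.0%, held a boundary midpoint between their first and last TSS. The beta-globin TSSs span 39.2 kb. The TSSs of Hba-x, Hba-a1 and Hba-a2 span 20.1 kb, and with Hbq1b and Hbq1a, theta-like globin genes of the same locus, they make a run of 5. Of the runs of 5 TSSs that span 15 to 30 kb, 43 of 373, or 11.5%, held a boundary. Overlapping runs share genes, so these shares are descriptive.

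**Figure D3:**
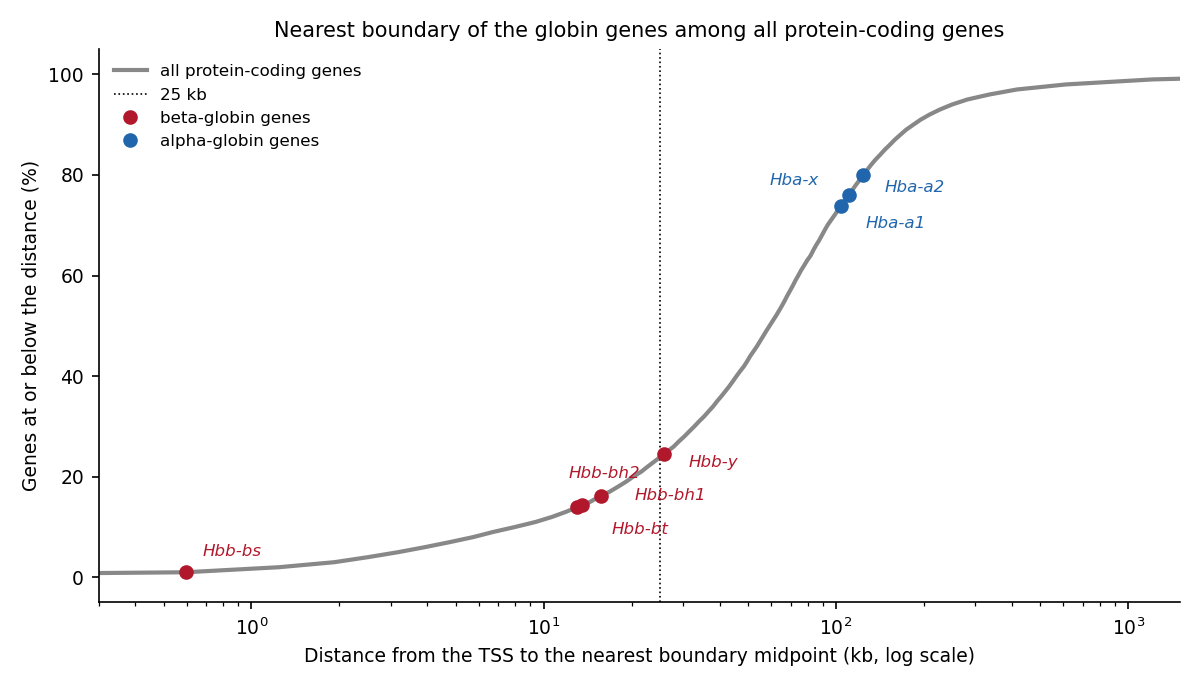
Percent of all protein-coding genes (grey curve) whose nearest boundary midpoint is at or below the distance on the log axis in kb, with the globin genes marked. The 5 beta-globin genes (red) lie between 1.01% and 24.5% and the 3 alpha-globin genes (blue) between 73.9% and 79.9%, with the dotted line at 25 kb.

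The alpha-globin genes were near the middle of an interval of 250 kb, chr11:32172500-32422500 between boundary midpoints. Hba-x (chr11:32276400-32278116, plus strand), which encodes the embryonic zeta-like chain, had its TSS 104 kb from the left boundary and 146 kb from the right one. For Hba-a1 (chr11:32283511-32284465), an adult alpha chain gene, the distances were 111 and 139 kb. For Hba-a2 (chr11:32296489-32297298), the other adult gene, they were 124 and 126 kb. Hbq1b and Hbq1a were 114 and 122 kb from their nearest boundary. The nearest boundary of Hba-x and Hba-a1 was the left one, the side on which their enhancers lie. For Hba-a2 the distances to both sides differed by less than the bin size of 5 kb, so its nearer side is not resolved.

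The Hba-a1 promoter (chr11:32283422-32283721, plus strand, RefSeq GRCm38.p6) is given for comparison with the adult beta genes, with the same motifs in capitals.
Hba-a1: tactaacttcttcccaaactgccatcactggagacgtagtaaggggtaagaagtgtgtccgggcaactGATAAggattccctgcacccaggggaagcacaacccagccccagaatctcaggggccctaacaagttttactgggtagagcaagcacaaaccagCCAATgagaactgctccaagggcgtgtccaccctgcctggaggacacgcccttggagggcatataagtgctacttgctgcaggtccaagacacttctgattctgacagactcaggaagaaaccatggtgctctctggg
It holds 1 match each to GATAA and CCAAT and none to CCACACCC or ATAAA. The adult beta promoters were 72.7% identical to each other and the adult alpha promoters, Hba-a1 and Hba-a2, 98.0%.

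The intervals of the 2 loci differed in their boundaries and in the genes they held. On the beta side, Hbb-bt lay in an interval of 415 kb (chr7:103412500-103827500 between midpoints) and the other 4 genes in one of 305 kb (chr7:103827500-104132500). Among the 7556 intervals of the list, whose median was 260 kb with quartiles of 180 and 395 kb, these were at the 77.7th and 60.7th percentiles. The alpha-globin interval was at the 47.5th percentile. The interval with Hbb-bt held 28 protein-coding TSSs, of which 26 were odorant receptor genes, 1 was Hbb-bt and 1 was Usp17lc, a deubiquitinase gene. The interval with Hbb-bh2, Hbb-bh1, Hbb-y and the TSS of Hbb-bs held 21, of which 15 were odorant receptor genes and 2 were other genes, 4930516K23Rik and Ubqln5. The alpha-globin interval held 11 protein-coding TSSs and 0 odorant receptor genes. Beside the 3 alpha-globin genes and both theta genes it held Il9r (the interleukin 9 receptor), Snrnp25 (a protein of the minor spliceosome), Rhbdf1 (an inactive rhomboid protein), Mpg (a DNA repair glycosylase), Nprl3 (a subunit of the GATOR1 complex that restrains mTORC1) and Sh3pxd2b (an adaptor of podosomes). The 6 neighbours other than globin genes were 27.8 to 95.2 kb from the nearest boundary, with Nprl3 the farthest. Of these, 0 of 6 were within 25 kb, against 23.9% of all protein-coding genes. They share the boundaries of this interval, so they are not independent observations.

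The next genes outside the loci lay in the same intervals as the globin genes beside them. Left of Hbb-bt the next protein-coding gene was the odorant receptor gene Olfr67, in the same interval, and right of Hbb-y it was Olfr66, in the same interval as Hbb-y. The beta-globin locus was thus not separated by a called boundary from the odorant receptor genes on either side, while it was itself divided. For the alpha-globin locus the next gene on the left was Nprl3. On the right it was Sh3pxd2b, beyond the theta-like globin gene Hbq1a. All of these lay in the interval of the alpha-globin genes.

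The boundary scores are the numbers in the last column of the authors' deposited list. They range up to 4.38, have no stated unit, and separate the classes, with a lowest score of 0.5002 for Strong and a highest of 0.4996 for Weak. Their median was 0.545. The boundary over Hbb-bs scored 0.700, at the 60.7th percentile, and was Strong. The outer boundaries of the beta-globin intervals were both Weak: chr7:103410001-103415000 on the left scored 0.387 (percentile 35.1) and chr7:104130001-104135000 on the right scored 0.293 (percentile 22.1). Both boundaries of the alpha-globin interval were Strong: chr11:32170001-32175000 on the left scored 0.844 (percentile 68.8) and chr11:32420001-32425000 on the right scored 1.38 (percentile 87.7). Every boundary at the beta-globin locus thus scored lower than either at the alpha-globin locus, with 3 boundaries against 2. The score has no replicate error here, so the size of this difference cannot be set against measurement error. The nearest protein-coding TSSs to the 4 outer boundaries were Usp17lc at 2.57 kb and Ubqln5, a ubiquilin gene, at 2.67 kb for the beta-globin locus, and Il9r at 27.8 kb and Ubtd2, which encodes a ubiquitin-domain protein, at 32.9 kb for the alpha-globin locus.

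**Figure D4:**
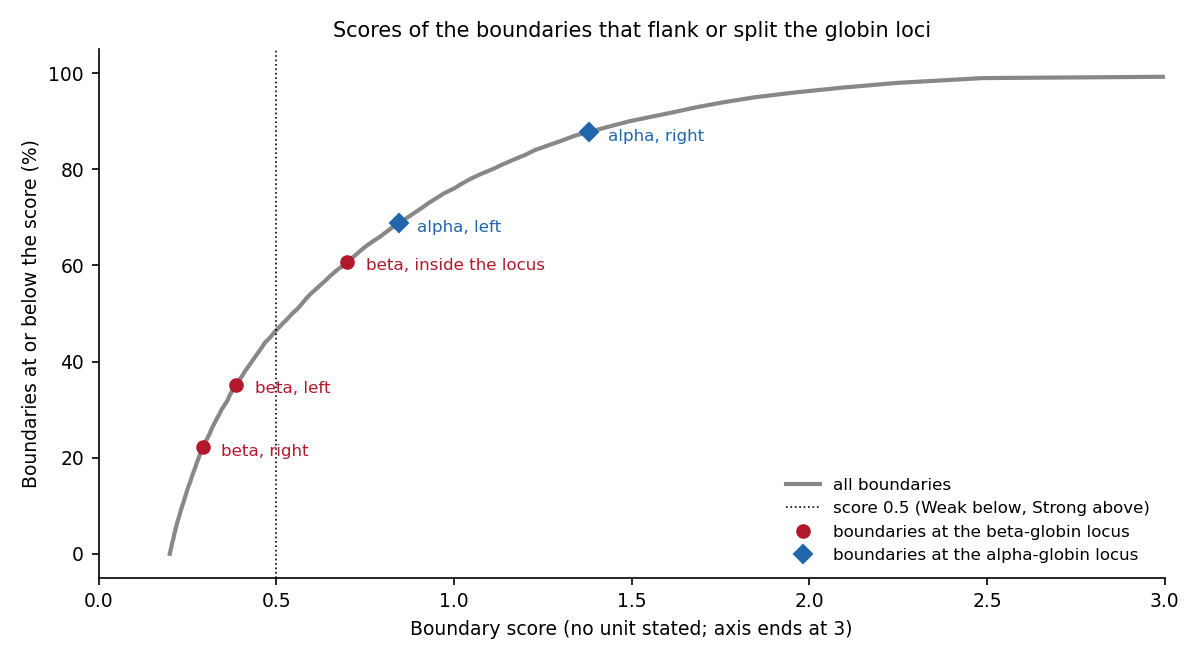
Percent of all 7576 boundaries at or below each deposited score (grey curve, no unit stated), with the boundaries at the beta-globin locus in red and at the alpha-globin locus in blue. The red points lie at 0.293, 0.387 and 0.700 and the blue points at 0.844 and 1.38, with the dotted line at 0.5 between the classes Weak and Strong.

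The number of boundaries around the loci depended on the window. Within 500 kb to each side of the centre of the beta-globin locus there were 3 boundary midpoints, 1 of them Strong, among 64 protein-coding TSSs. Around the alpha-globin locus there were 5, of which 4 were Strong, among 18 protein-coding TSSs. The same window centred on every protein-coding TSS held a median of 4, with quartiles of 3 and 5. At most 3 boundaries were found for 42.0% of all TSSs and at most 5 for 90.6%. Within 1000 kb to each side the numbers were equal, with 7 boundaries at each locus, and within 250 kb they were 1 for beta-globin and 2 for alpha-globin.

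RefSeq annotates tested regulatory elements in both loci, and their place relative to the boundaries was read from its coordinates on GRCm38. In the beta-globin intervals it lists 16 DNase I hypersensitive sites, sites of open chromatin known from earlier work and not from these neurons. The boundary midpoint separated 3 of them on the left from 13 on the right. The LCR with 5'HS1 to 5'HS6, at chr7:103857890-103877545, lay on the right, 40.2 kb from the boundary at its middle. Between Hbb-bt and 13 of the 16 sites, all of the LCR included, there was thus 1 boundary midpoint, with 53.7 kb from the TSS to the middle of the LCR. Hbb-bh1, Hbb-bh2 and Hbb-y had none between them and the LCR, at 24.6, 27.2 and 14.5 kb. Hbb-bs, at 39.6 kb, cannot be placed to one side. HS-E1, an embryonic enhancer between Hbb-bh1 and Hbb-y at chr7:103846833-103847665, lay 19.7 kb right of the boundary.

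The 3 sites on the left were 3'HS1 at chr7:103792900-103793700, an insulator that binds CTCF, and the enhancers downstream of each adult gene. HS-3'beta2, downstream of Hbb-bt at chr7:103808651-103809650, was 18.4 kb from the boundary. HS-3'beta1, downstream of Hbb-bs at chr7:103824261-103825260, was the element nearest to the boundary, at 2.74 kb from its midpoint. Of this element 260 bases reached into the bin, so its side is not resolved. It is counted on the left by its middle. In the alpha-globin interval RefSeq lists 12 DNase I sites, from 59.1 to 96.9 kb right of the left boundary. There were 0 boundaries between any of these 12 sites and any of the 3 alpha-globin genes. MCS-R2, the strongest alpha-globin enhancer, at chr11:32250960-32251395, was 78.7 kb from the left boundary and 25.2, 32.3 and 45.3 kb from the TSSs of Hba-x, Hba-a1 and Hba-a2.

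RefSeq annotates 4 CTCF-bound sequences in the beta-globin intervals, shown because CTCF marks many boundaries and none of these lies at the boundary found here. They are read 5′ to 3′ on the strand named, from GRCm38.p6, and capitals mark a match to the CTCF core consensus where there is one.
3'HS1, chr7:103793094-103793109, plus strand: CCAGTAGGGGGCagaa
5'HS5, chr7:103874619-103874690, plus strand: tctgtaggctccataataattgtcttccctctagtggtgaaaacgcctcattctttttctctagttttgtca
HS-62.5, chr7:103913173-103913200, plus strand: taccccttccccctggtggctacactag
HS-85.5, chr7:103942936-103942963, minus strand: cagatgtgaCCAGGAGAGGGCagcagag
The sites at 3'HS1 and HS-85.5 matched the core consensus, on strands that face each other across the genes, and the sites at 5'HS5 and HS-62.5 did not. The 4 sites lay 34.4, 47.2, 85.7 and 115 kb from the midpoint of the boundary over Hbb-bs. That boundary had 0 core matches within 10 kb, and the nearest was the one at 3'HS1. CTCF binding was not measured in these neurons. RefSeq annotates the sites at 5'HS5 and HS-62.5 as bound by CTCF, though they have no match to this consensus. A lack of core matches, here and below, therefore does not show that CTCF sites are absent. No core match lay between the first and last beta-globin gene, and 3 lay between the first and last alpha-globin gene.

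Of the boundaries that flank the loci, the left one of the beta-globin locus also had 0 core matches within 10 kb, and the right one had 1, on the minus strand and 2.25 kb from its midpoint. Both alpha-globin boundaries had 1. The match nearest to any of these midpoints is shown with 8 bases on each side; it lay 0.299 kb from the midpoint of the left alpha-globin boundary.
chr11:32172786-32172813, minus strand: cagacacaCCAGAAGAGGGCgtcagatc
Across the list, 58.0% of boundaries had a core match within 10 kb of the midpoint, and 41.1% of all windows of 20 kb in the genome held one. Between its outer boundaries the beta-globin locus held 8 core matches, or 1.11 per 100 kb, and the alpha-globin locus 19, or 7.60 per 100 kb, against 3.47 per 100 kb over chromosomes 1 to 19 and X. The 2 loci also differ in base composition, with a mean GC content of 38.2% in the beta-globin intervals and 48.3% in the alpha-globin interval, against 41.8% over all bins. The part of base composition in these densities was not tested.

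Near-identical gene copies limit how well contacts can be placed in both loci. Stretches of 100 bases of the reference, a length chosen here because the labels do not state that of the reads, were aligned back to the reference. A stretch counted as unique at a mapping quality of at least 30. Of stretches from Hbb-bs, 20.7% were unique, and of those from Hbb-bt 14.8%, whereas 100% were unique in Hbb-bh1, Hbb-bh2 and Hbb-y. In the alpha-globin locus 0 of 17 stretches from Hba-a1 and 0 of 14 from Hba-a2 were unique, against 93.9% in Hba-x. The bin of the boundary over Hbb-bs was 76.8% unique, and the mean over the genome was 87.4%. Between Hbb-bt and Hbb-bs, the bin chr7:103815001-103820000 was 30.3% unique and 89.1% repeat, and the bin next to the boundary, chr7:103820001-103825000, was 58.6% unique. To the right of the boundary, the bin chr7:103830001-103835000 was 96.0% unique. The part of this difference in unique sequence between the sides in the boundary call was not tested.

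Over the whole interval, the figures were 79.6% left of the boundary, 82.4% right of it and 94.8% in the alpha-globin interval. Of the bins of 5 kb, 20 of 145 in the beta-globin intervals and 0 of 51 in the alpha-globin interval were under 50% unique. The share of such bins over the genome was not computed. The median number of DpnII sites, at which the DNA was cut, was 12 per bin in both loci and over all bins. The bin over Hbb-bs held 10, the outer beta-globin boundary bins 13 and 10, and the left alpha-globin boundary bin 14. The bin of the right alpha-globin boundary, which had the highest score of the 5, held 6, at the 5.73rd percentile of all bins. The part of the number of sites in the scores was not tested. RefSeq notes that mouse strains carry a single or a diffuse form of the beta-globin locus and that the reference carries the single one. A BALB/c contig of the diffuse form, 55856 bases long, gave 1116 stretches, of which 52.6% were placed uniquely in the beta-globin intervals of the reference. Which form the mice of this study carry was not analysed here. The beta-globin genes, promoters and distances given are those of the single form and may differ from those of the mice.

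**Figure D5:**
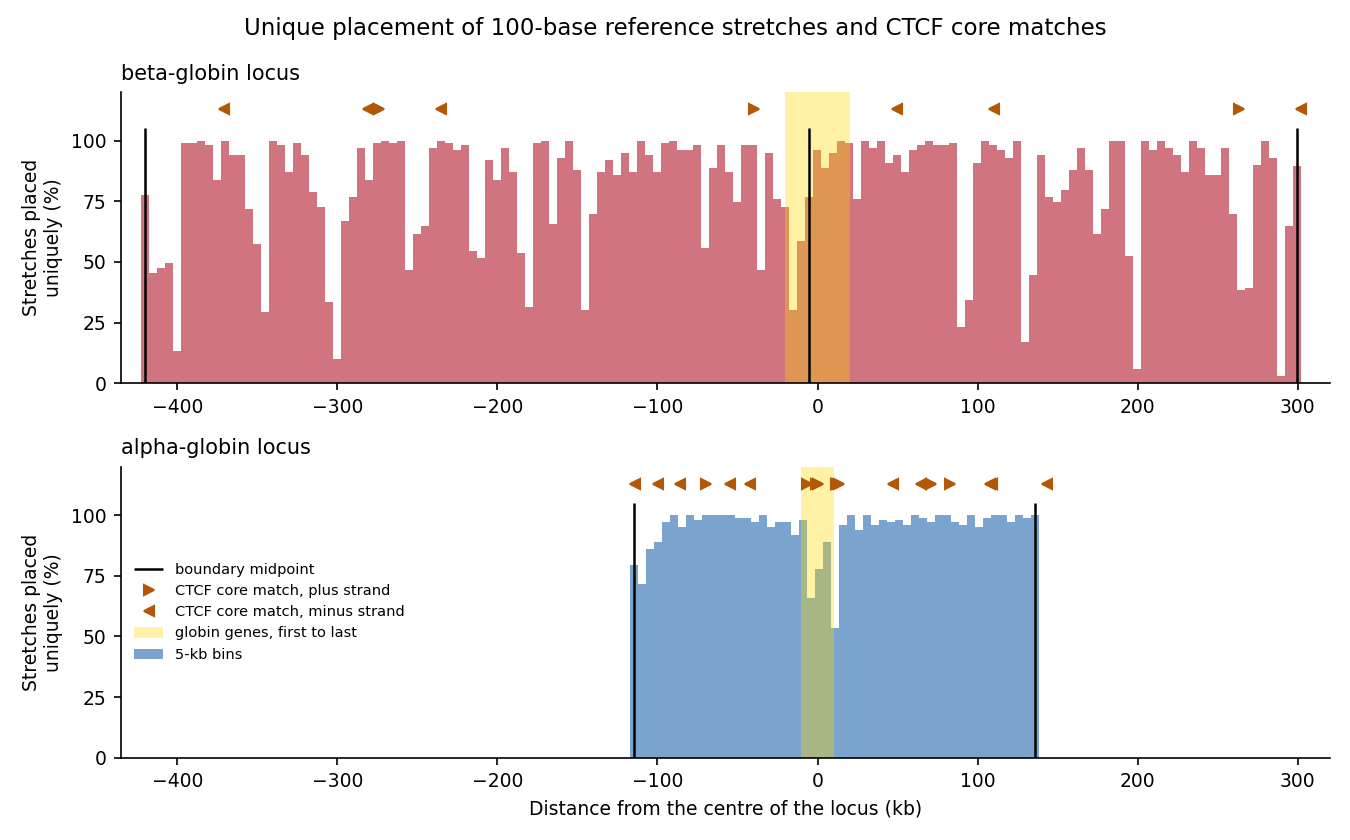
Percent of 100-base reference stretches placed uniquely in each bin of 5 kb (bars) against the distance from the centre of the locus in kb, for the beta-globin locus (top) and the alpha-globin locus (bottom). Black lines are boundary midpoints, triangles are CTCF core matches pointing right for the plus strand and left for the minus strand, and the yellow band runs from the first to the last globin gene. The beta-globin boundary at the yellow band has lower bars on its left (30.3% and 58.6%) than on its right (96.0%).

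The other globin genes and the genes that act with globins in red cells were set beside the 8 genes as lists. Within 25 kb of a boundary were 4 of the 7 other globin genes, 2 of 13 erythroid regulators, 2 of 9 genes of haem synthesis and 2 of the 9 matched genes of red cell proteins, against 23.9% of all protein-coding genes. The 7 other globin genes include 2 pseudogenes, and the share over genes of any type was 19.7%. The medians of the lists were 22.6, 64.4, 32.8 and 59.6 kb. Of the 4 other globin genes near a boundary, 2 were the beta-globin pseudogenes, which share the boundary over Hbb-bs. The others were Cygb, encoding cytoglobin, at 16.8 kb, and Ngb, encoding the neuronal globin neuroglobin, at 9.96 kb from a Weak boundary.

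The haem synthesis gene Urod, encoding uroporphyrinogen decarboxylase, had its TSS 1.91 kb from a boundary midpoint and inside the bin, as Hbb-bs had. Ppox, encoding protoporphyrinogen oxidase, was 6.31 kb from a boundary, and Tfrc, the transferrin receptor gene, 3.58 kb. The farthest of each list were Hbq1a at 122 kb, the transcription factor gene Myb at 132 kb, Uros at 72.6 kb and the erythropoietin receptor gene Epor at 151 kb. Olfr17, the odorant receptor gene by which the cells were sorted, lies on the same chromosome as the beta-globin locus but was 85.7 kb from its nearest boundary.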

How the data were processed

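The authors deposited 1 list of boundary bins for both replicates: chromosome, start, end, a class and a score without stated unit. The build was GRCm38, per the submitters' processing notes. Aligner, boundary caller and sequencing depth: not given in the sources used here. Contact matrices, insulation tracks and compartment tracks are not used here. Distances ran from GENCODE M21 TSSs to bin midpoints and were tested on simulated positions. An interval is the stretch between neighbouring midpoints of a chromosome. CTCF cores were searched on both strands by a consensus. Reference stretches were aligned with minimap2 2.31. Promoters were aligned globally with Biopython 1.88. Other steps used Python 3.11.15, pandas 2.3.3 and matplotlib 3.10.9.

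The genes and lists were chosen with earlier results of these data known. Named genes were the 8 globin genes, listed genes in their intervals, the genes next to each locus or flanking boundary, listed genes within 10 kb of a boundary, the farthest of each list, and Olfr17. Cygb and the further genes of the intervals were named after their values were seen. Ahsp had no match among the annotated symbols and was left out. Alternatives were the boundaries used, the position of a boundary or TSS, the distance that counts as near, the background genes and the window.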

Additional observations from a re-analysis of the deposited data

How the results depend on the processing

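Of 49 recomputed values, 29 stayed within the tolerance used (the bin size of 5 kb for lengths, 0.01 for scores, 1.5 times for counts, and for the background share its exact 95% binomial interval of 23.3% to 24.5%, which is narrow because it rests on 21755 genes) and 20 moved. The boundary over Hbb-bs was in every selection of boundaries, so with Strong boundaries alone or with the higher-scoring part of the list the median distance stayed at 13.5 kb for beta-globin and 111 kb for alpha-globin genes, and 4 of 5 and 0 of 3 genes were within 25 kb. Within 10 kb there was 1 beta-globin gene, and within 50 or 100 kb all 5. The background share was 15.8% with Strong boundaries alone, 14.9% with the higher-scoring part, 25.8% from the nearer bin edge, 29.7% with the nearest TSS of any transcript, 19.7% with genes of any type, and 11.5%, 43.2% and 72.4% within 10, 50 and 100 kb.

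The beta-globin intervals depend on Weak boundaries. With Strong boundaries alone that of Hbb-bt was 555 kb and that of Hbb-y 1695 kb, and with the higher-scoring part 1345 and 1695 kb, since the outer Weak boundaries drop out by construction; the alpha-globin interval stayed at 250 kb. The median score of the boundaries at the beta-globin locus was then 0.581 and 0.700. Around the beta-globin locus 1 boundary was found within 250 kb, 7 within 1000 kb, and 1 within 500 kb under either selection. Around the alpha-globin locus 2 were found within 250 kb, 7 within 1000 kb, the same as for beta-globin, and 4 within 500 kb under either selection.

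No paired analysis was possible because both replicates are in 1 deposited list, and for the same reason leaving out a replicate was not run. Depth, resolution beyond 5 kb bins and the error of each score are unknown.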

Other observations

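The beta-globin locus lies in a cluster of odorant receptor genes that runs from Olfr543 to Olfr692, with 156 protein-coding TSSs, of which 129 were odorant receptor genes and 27 were not. Its 9 boundaries were examined after the values were known, and no test was made. For 5 of the 9 the nearest TSS was that of another kind of gene: Usp17ld at 20.0 kb, Usp17lc at 2.57 kb, Hbb-bs at 0.596 kb, Ubqln5 at 2.67 kb and Usp17le at 4.97 kb. For the other 4 it was that of an odorant receptor gene: Olfr543 at 0.821 kb, Olfr578 at 13.2 kb, Olfr585 at 5.22 kb and Olfr690 at 3.40 kb. Within 10 kb of a TSS of another kind were 4 boundaries, and within 10 kb of an odorant receptor TSS also 4. The median distance from a boundary was 20.0 kb to the nearest TSS of another kind and 13.2 kb to the nearest odorant receptor TSS. These medians do not allow for the unequal numbers of TSSs, 129 of odorant receptor genes and 27 of other genes. The nearest TSSs of another kind also include those of Rrm1 and Gm5901, which are not among the 27. Whether the boundaries as a set lay nearer to one kind was not tested. The boundary over Hbb-bs had the highest score of the 9 but for the one at the start of the cluster, which scored 2.54.

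Counted from the genes, the median distance to the nearest boundary was 71.1 kb over the 27 other genes and 106 kb over the 129 odorant receptor genes. Over all 1135 protein-coding odorant receptor genes of the genome it was 97.0 kb. Within 25 kb were 10 of 27 and 9 of 129, against 23.9% of all protein-coding genes. The 10 include 4 beta-globin genes, which share 1 boundary. The Trim genes between Ubqlnl and Usp17le were 86.3 kb (Trim6) to 307 kb (Trim30a) from their nearest boundary.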
